A study of Gallus gallus with 24 samples.

Results

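The soleus, a small calf muscle that works for long periods, was compared with the pectoralis major, the large breast muscle, in hens kept on a normal control diet. The comparison takes 8 of the 24 libraries of the study, 4 from each muscle, and 10944 of the 20780 genes in the deposited table. These genes had at least 1 FPKM in at least 4 of the 24 libraries. FPKM is a transcript level: the sequenced fragments of a gene, divided by its length and by the depth of the library. All birds were Guangyuan Grey hens that started the experiment at 150 days of age and were sampled at 210 days after a 12 h fast. Each sampled bird gave both muscles, but whether the 4 libraries of each muscle came from the same birds is not stated. The study also fed high-fat diet for 15 days (SHFD) or 60 days (LHFD), and the 16 libraries of those groups entered here through the estimate of the spread and in the last comparison. The soleus was cut at its widest part without its superficial layer, and the breast muscle on the side facing the skin.

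Skeletal muscle fibres differ in the isoforms of the contractile proteins they use and in the fuel they burn. Slow fibres carry slow myosins and troponins, many mitochondria and a dense capillary bed, and oxidise fat, whereas fast glycolytic fibres break down glycogen to lactate. The chicken breast is a textbook case of a nearly pure fast glycolytic muscle, while the leg holds both fibre kinds. Muscles of the hind limb and of the forelimb and trunk also keep expressing, in the adult, part of the HOX and other positional genes that laid out the body axis in the embryo.

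Each gene was tested on log2(FPKM + 1) with limma, and the difference is given as soleus minus breast on that scale, with its standard error (SE) and a Benjamini-Hochberg adjusted p over the 10944 genes; "rose" or "higher" and "fell" or "lower" mean an adjusted p under 0.05. Of the genes tested, 3365 (30.7%) were higher and 2189 (20%) lower in the soleus, so that 5554 (50.7%) were called; 5390 were not. The 4 soleus values all lay above the 4 breast values for 2772 genes (25.3%) and all below for 2029 (18.5%). The median difference of all genes was 0.12. Setting all libraries to one distribution (quantile normalization) moved that median to −0.07 and setting them to an equal sum of nuclear-encoded FPKM moved it to 0.23, and list counts whose direction turned under either are given with the result. A gene seen in one muscle only passes the expression filter through that muscle, so the counts for gene lists are descriptions to be read against the shares for all genes.

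**Figure D1:**
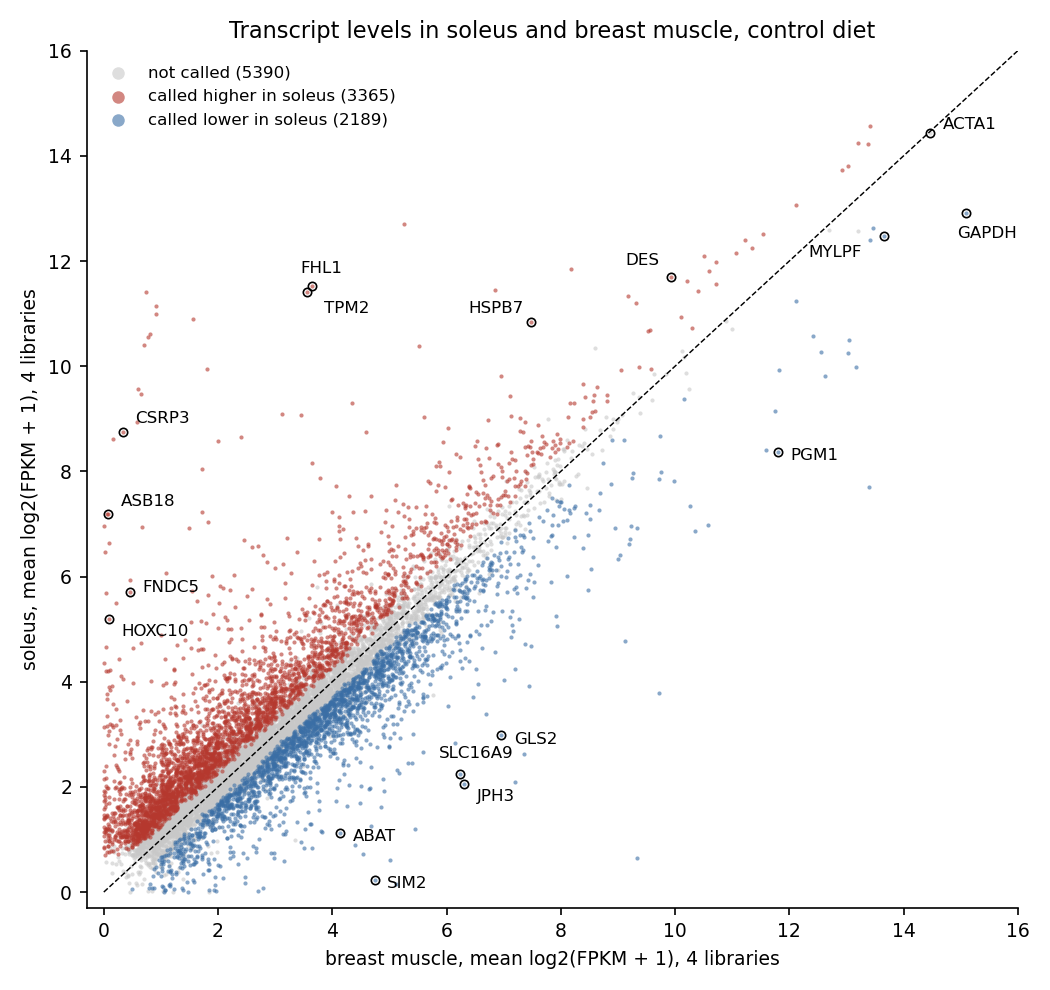
Mean log2(FPKM + 1) of the 4 soleus libraries (vertical axis) against the 4 breast libraries (horizontal axis) for 10944 genes, red where called higher and blue where called lower in the soleus, with the line of equal levels dashed. Genes near the left edge, such as HOXC10, FNDC5, ASB18 and CSRP3, were almost absent from breast muscle, SIM2 lies near the bottom edge, and ACTA1 sits on the dashed line.

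The 8 libraries had FPKM sums of 479179 to 519978, and the read depth behind them is unknown because the table holds no counts. Soleus libraries showed 10262 to 10590 genes at 1 FPKM or more. Breast libraries 1, 3 and 4 showed 9285 to 9432, and breast library 2 stood apart with 10484. In breast library 2 the summed FPKM of 10 macrophage markers was 687.9 against at most 151.1 in the other breast libraries. Most of that sum was 1 gene, CD74, at 525.7 FPKM in breast library 2 and 105.7 to 133 FPKM in the other breast libraries. The summed FPKM of 14 lymphocyte markers was 322.9 in breast library 2 against at most 24.8. Genes that mark muscle fibres were abundant in all 8 libraries: skeletal actin ACTA1 ranged from 19915 to 25172 FPKM and fast troponin C (TNNC2) from 4749 to 7417 FPKM.

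The largest shift in the make-up of the muscle RNA was in carbohydrate enzymes. Genes of glycolysis and glycogen metabolism, 46 in the table, made up 3.56 ± 0.563% (SD, n = 4; 2.76 to 3.97) of the FPKM sum in the soleus libraries and 18.6 ± 2% (SD, n = 4; 16.1 to 20.7) in the breast libraries. No soleus library came near the lowest breast library, and soleus library 3 had the lowest share of all. The 13 mitochondrially encoded genes went the other way, at 24.5 ± 2.31% (SD, n = 4; 21.8 to 27) against 13.2 ± 1.97% (SD, n = 4; 10.4 to 14.8) (exact two-sided permutation test, p = 0.0286, the smallest that 4 against 4 libraries can give). The 99 genes of nuclear-encoded oxidative phosphorylation, the TCA cycle and fatty acid oxidation took 3.36 ± 0.3% (SD, n = 4; 3.09 to 3.66) in soleus and 1.71 ± 0.0715% (SD, n = 4; 1.6 to 1.75) in breast, again without overlap. Contractile and sarcomeric genes, 86 in all, took nearly equal shares, 20 ± 1.11% (SD, n = 4; 18.5 to 21.2) and 21.9 ± 1.03% (SD, n = 4; 20.7 to 23), and their ranges overlapped. GAPDH alone, a glycolytic enzyme, made up 7.15% of the FPKM sum in breast and 1.54% in soleus. Its level was 9119, 9162, 5621 and 7741 FPKM in soleus libraries 1 to 4 and 37981, 27768, 34483 and 40233 FPKM in breast libraries 1 to 4. The groups did not overlap, and the log2 difference was −2.16 (SE 0.27, adjusted p = 1.3e-06).

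**Figure D2:**
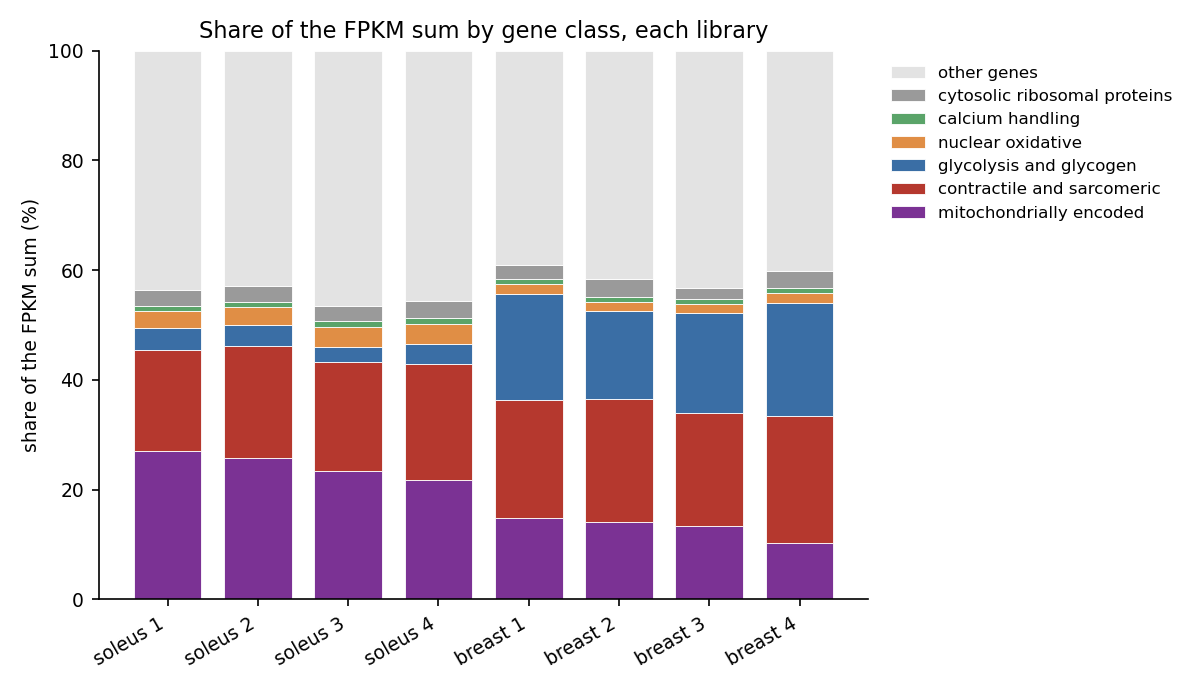
Share of the FPKM sum (%) of 7 disjoint gene classes, stacked, in each of the 8 libraries. The blue glycolysis and glycogen band spans 2.76% to 3.97% in soleus libraries and 16.1% to 20.7% in breast libraries, and the purple mitochondrially encoded band is wider in every soleus library.

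Both muscles also differed in the genes that record body position. The table held 34 HOX genes, and 16 passed the filter; 8 of them were higher and 5 lower in the soleus; under quantile normalization the counts were 5 and 6, so neither direction leads under all scalings. HOXC10, a posterior gene of the hind limb region, was at 34.6, 37.7, 36.9 and 33.3 FPKM in the soleus libraries and at 0.0925, 0.0596, 0 and 0.102 FPKM in the breast libraries. The 4 soleus values were close to each other and far above the breast values, with a log2 difference of 5.11 (SE 0.13, adjusted p = 4.1e-18). HOXC11, the next gene of that cluster, was at 2.82, 4.52, 4.14 and 2.5 FPKM in soleus and was listed at 0 in all 4 breast libraries. HOXA13, a gene of the distal limb, was at 3.2, 3.75, 3.16 and 3.81 FPKM in soleus against 0, 0.0644, 0 and 0.0481 FPKM in breast, a log2 difference of 2.12 (SE 0.16, adjusted p = 1.0e-09).

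Several HOXA genes that act further forward in the body than HOXA13 were lower in the soleus. HOXA7 was at 15.1, 13.7, 13.7 and 12.1 FPKM in soleus and 38.8, 41.5, 39.7 and 37.3 FPKM in breast. Its groups did not overlap, and the log2 difference was −1.46 (SE 0.16, adjusted p = 1.6e-07). For HOXA5 the soleus values were 1.55, 1.93, 1.94 and 2.22 FPKM and the breast values 6.67, 8.66, 7.21 and 7.57 FPKM, a log2 difference of −1.55 (SE 0.16, adjusted p = 1.2e-07). HOXA10 stood at 1.56, 1.36, 1.36 and 1.45 FPKM in soleus and 8.23, 3.8, 6.57 and 7.91 FPKM in breast, where library 2 had the lowest value but still lay above every soleus library (log2 difference −1.6, SE 0.24, adjusted p = 1.1e-05). HOXD9 reached at most 0.192 FPKM in the 8 libraries and was not tested.

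Outside the HOX clusters, 54 factors of limb and axial patterning were in the table and 17 were tested, of which 10 were higher and 4 lower. PITX1, which specifies the hind limb in vertebrate embryos, was at 1.05, 1.73, 4.56 and 3.06 FPKM in soleus and 0.0223, 0, 0.0412 and 0 FPKM in breast, with no overlap and a log2 difference of 1.72 (SE 0.36, adjusted p = 4.8e-04). The T-box pair that separates leg from wing was below the filter and has no test: TBX4, the leg gene, was at 0.57, 0.384, 0.338 and 0.516 FPKM in soleus and 0, 0.0138, 0 and 0 FPKM in breast, while TBX5, the wing gene, was at 0, 0.0179, 0 and 0 FPKM in soleus and 0.203, 0.291, 0.153 and 0.119 FPKM in breast. Each of the pair was thus higher, by value, in every library of the muscle from its own limb region. BARX2 and EN2, both homeobox genes, were higher by 4.1 (SE 0.52) and 2.73 (SE 0.18) on the log2 scale.

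Other patterning genes marked the breast. SIM2, a bHLH-PAS factor, was at 19.2, 26.6, 25 and 34.3 FPKM in the breast libraries and at 0.13, 0.139, 0.354 and 0.108 FPKM in the soleus libraries. Every breast library was far above every soleus library, with a log2 difference of −4.5 (SE 0.18, adjusted p = 1.9e-14). MEIS1, a cofactor of HOX proteins, was at 2.55, 1.76, 1.49 and 2.06 FPKM in soleus and 12.3, 11.8, 16.9 and 10.2 FPKM in breast (log2 difference −2.21, SE 0.16, adjusted p = 3.9e-10).

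**Figure D3:**
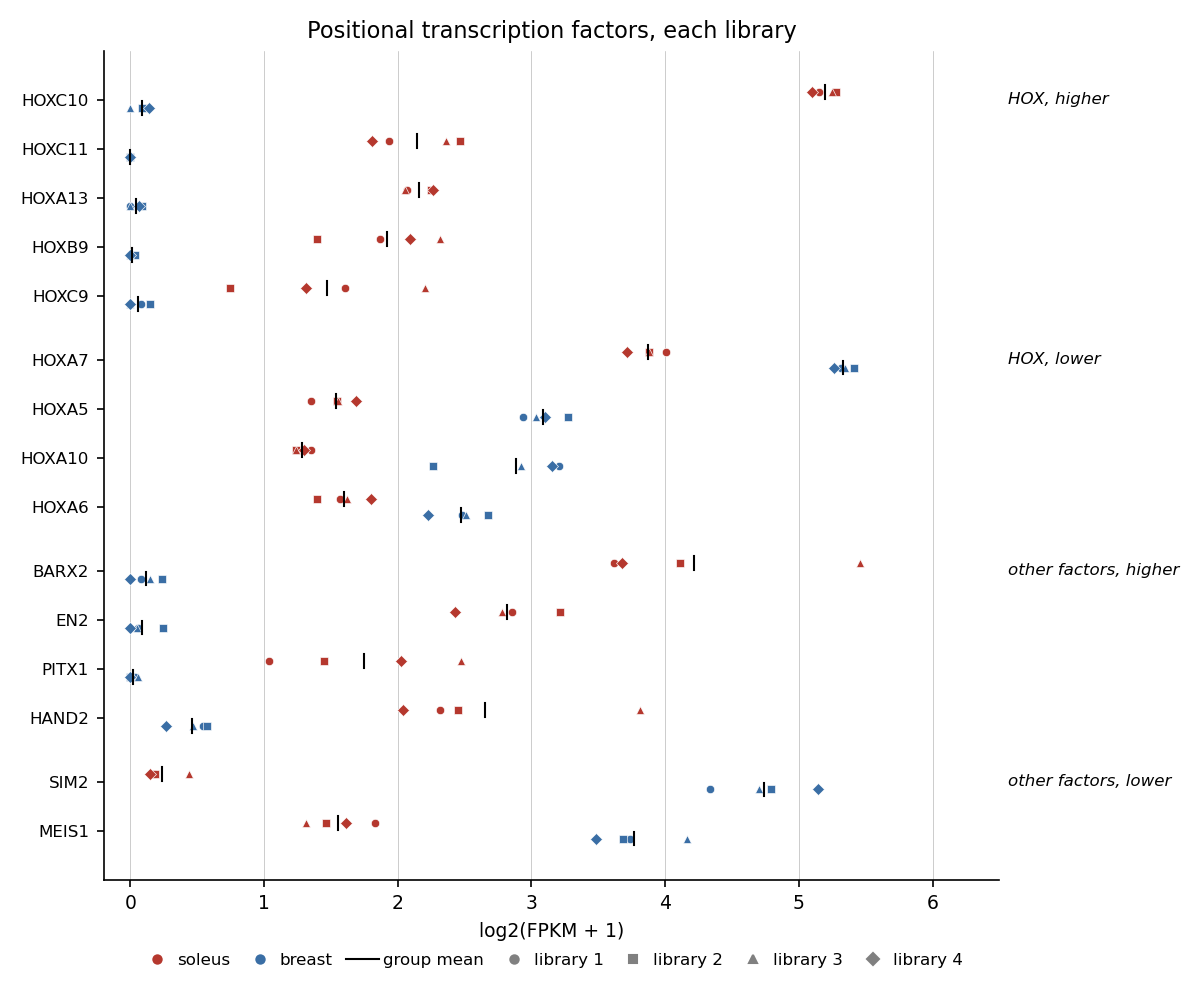
Level in log2(FPKM + 1) of 15 positional transcription factors in each soleus (red) and breast (blue) library, with marker shape giving the library number and a black bar the group mean. Red and blue points do not overlap for any of the genes drawn; red lies to the right in the blocks named higher and to the left in the blocks named lower.

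Contractile genes differed by isoform, while their summed share was close. Only genes with a symbol were counted. Of 11 myosin heavy chain genes tested 7 were higher and 1 lower, of 14 light chain and myosin-binding genes 9 and 3, of 20 thin filament genes 12 and 5, and of 28 Z-disc, M-band and elastic filament genes 17 and 1. The last count of 1 became 3 when soleus library 3 was left out. The myosin heavy chain list is not confined to chains of the sarcomere, and MYH10, a non-muscle myosin, was among those higher (log2 difference 2.92, SE 0.38). FHL1, a LIM-domain scaffold of the sarcomere, was at 2299, 2844, 3814 and 3062 FPKM in soleus and 19.8, 13.1, 5.21 and 12.8 FPKM in breast. No library of either muscle came near the other group, and the log2 difference was 7.88 (SE 0.49, adjusted p = 4.0e-11). TPM2, beta-tropomyosin, which lies along the thin filament, was at 2660.5, 2936, 2546 and 2806 FPKM in soleus against 10.4, 23.6, 3.69 and 13.9 FPKM in breast. The soleus libraries were alike and the breast libraries varied among themselves at low levels, with a log2 difference of 7.85 (SE 0.52, adjusted p = 1.1e-10).

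The sarcomere's mechanical sensors and end caps followed. CSRP3, muscle LIM protein of the Z-disc, was at 331, 372, 785 and 356 FPKM in soleus and 1.17, 0.0775, 0 and 0.0856 FPKM in breast. Soleus library 3 and breast library 1 were the high ones of their groups, and the log2 difference was 8.42 (SE 0.49, adjusted p = 1.4e-11). MYOM3, an M-band protein, was at 79.3, 86.1, 159 and 86 FPKM in soleus and at most 0.106 FPKM in breast (log2 difference 6.54, SE 0.32, adjusted p = 8.2e-13). TMOD1, which caps the slow-growing end of actin filaments, was at 107, 146, 144 and 131 FPKM in soleus and 3.04, 2.87, 1.82 and 2.54 FPKM in breast, a log2 difference of 5.22 (SE 0.22, adjusted p = 5.0e-14). Its relative TMOD4 went down, from 349.6, 385, 235 and 461 FPKM in breast to 149, 154, 119.7 and 165 FPKM in soleus (log2 difference −1.25, SE 0.17, adjusted p = 3.7e-06). MYL2, a slow regulatory light chain, was at 178, 105, 78.2 and 161 FPKM in soleus and was listed at 0 in all breast libraries. The giant spring protein titin, on the deposited ID ENSGALG00000048310, averaged 4047 ± 145 FPKM in soleus and 1702 ± 264 FPKM in breast (log2 difference 1.26, adjusted p = 3.7e-08), and the other 5 IDs annotated as titin were also higher without overlap.

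Fast isoforms went both ways. Among the fast myosin heavy chains, close paralogs that may share reads, MYH1E was at 299.7, 327, 119 and 162 FPKM in soleus and 9616, 13616, 10529 and 10002 FPKM in breast, whereas MYH1C was at 2772, 4252, 1761 and 2099 FPKM in soleus and 584, 597, 581 and 563 FPKM in breast. Neither pair of groups overlapped, and the log2 differences were −5.69 (SE 0.36, adjusted p = 4.7e-11) and 2.14 (SE 0.43, adjusted p = 3.1e-04). MYH1D was higher too, with a log2 difference of 1.66 (SE 0.49, adjusted p = 0.0073). MYH1A, MYH1B and MYH1F were not called, with log2 differences of 1.76, 0.19 and 0.76 (adjusted p = 0.058, 0.75 and 0.31). By value, MYH1A was at 545 to 2588 FPKM in soleus and 301 to 460 FPKM in breast. MYH1F was at 193 to 268 FPKM in soleus and 108 to 170 FPKM in breast. Neither of these genes overlapped between the muscles, whereas MYH1B did. The unnamed ID ENSGALG00000028612, annotated as a myosin heavy chain without a single isoform, averaged 3728.5 FPKM in soleus and 295.6 FPKM in breast. Its groups did not overlap (log2 difference 3.66, adjusted p = 9.1e-09), and its soleus mean was above those of MYH7B (2834.5 FPKM) and MYH1C (2721 FPKM). Another such ID, ENSGALG00000041541, was not called (log2 difference −0.91, adjusted p = 0.22). MYLPF, the fast regulatory light chain, was at 5606, 6844, 4268 and 6536 FPKM in soleus and 13656, 13859, 10605 and 13658 FPKM in breast. Its groups did not overlap and library 3 was the lowest in both muscles, with a log2 difference of −1.17 (SE 0.34, adjusted p = 0.0073). MYOZ3, a calsarcin that tethers calcineurin to the Z-disc, was at 136, 56.4, 47.7 and 63.7 FPKM in soleus and 391, 418, 345 and 330.3 FPKM in breast, a log2 difference of −2.39 (SE 0.54, adjusted p = 9.3e-04). Fast troponin C, TNNC2, was at 6336, 7417, 4749 and 6399 FPKM in soleus and 7083, 6479.5, 6492 and 6567 FPKM in breast, overlapping, with a log2 difference of −0.11 (SE 0.34, adjusted p = 0.79). ACTA1 likewise overlapped, at 22194 ± 1582 FPKM in soleus and 22775 ± 1955 FPKM in breast (log2 difference −0.04, SE 0.15, adjusted p = 0.86). TNNC1, the slow troponin C, differed in the opposite direction from MYL2: it was at 952, 762, 1487 and 834 FPKM in soleus and 3892, 3451, 3849 and 3361 FPKM in breast, with no overlap and a log2 difference of −1.9 (SE 0.39, adjusted p = 3.5e-04).

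The 4 soleus libraries were not alike in fibre genes. Of 23 contractile genes that rose by over 3 on the log2 scale, 18 had their highest soleus value in library 3, and of 10 contractile genes that fell, 8 had their lowest soleus value there. Soleus library 3 lay farthest from breast for most of these genes, and its 4303 FPKM of MYH7B, a slow myosin, compared with 2039 to 2706 FPKM in the other soleus libraries. Without soleus library 3, or without any other one of the 8 libraries, the calls of FHL1, TPM2, CSRP3, MYOM3, TMOD1, MYLPF and MYOZ3 stood.

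Calcium handling genes differed in both directions: of 22 tested, 10 were higher and 7 lower. The largest rises of the list were PLN, phospholamban, which restrains the calcium pump, ATP2A2, the pump of slow and cardiac fibres, and PVALB, the calcium buffer parvalbumin. PLN was at 1165, 1066, 2393 and 1735 FPKM in soleus and 2.24, 1.14, 0.0929 and 0.139 FPKM in breast, without overlap. The log2 differences were 9.78 (SE 0.41, adjusted p = 4.6e-14), 6.58 (SE 0.31, adjusted p = 5.1e-13) and 2.99 (SE 0.60, adjusted p = 3.2e-04). SLN, sarcolipin, another regulator of calcium pumps, was lower, at 491, 668, 205 and 419 FPKM in soleus and 891, 987, 725 and 814 FPKM in breast (log2 difference −1.05, SE 0.39, adjusted p = 0.031), but it was not called without soleus library 3 (adjusted p = 0.14), without soleus library 4 or breast library 1, 2 or 4 (0.0502 to 0.0618), with equal nuclear-encoded sums (0.0567) or without the filter (0.0614). CALM2, a calmodulin gene, whose product is a general calcium sensor and also a subunit of phosphorylase kinase, was at 94.6, 98.6, 72.2 and 75.8 FPKM in soleus and 547, 632, 506 and 434 FPKM in breast. Its groups did not overlap, with a log2 difference of −2.62 (SE 0.18, adjusted p = 1.1e-10). JPH3, a junctophilin that ties the surface membrane to the calcium store and is known in mammals mainly from brain, was at 2.56, 3.33, 3.7 and 3.06 FPKM in soleus and 72.3, 73.1, 85 and 84.9 FPKM in breast, a log2 difference of −4.26 (SE 0.28, adjusted p = 6.7e-11). The ryanodine receptor annotated RYR1, the calcium release channel of skeletal muscle, had 258 ± 23.2 FPKM in soleus and 238 ± 45.8 FPKM in breast and was not called (log2 difference 0.13, adjusted p = 0.59). CAMK2A, a calmodulin-dependent kinase counted with the fibre type regulators, was at 47.6, 65.7, 57.3 and 52.2 FPKM in soleus and 2.52, 4.32, 2.23 and 3.69 FPKM in breast, with a log2 difference of 3.78 (SE 0.31, adjusted p = 3.2e-09).

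Most glycogen genes were lower in the soleus. Of 18 tested, 12 were lower and 4 higher, with a median difference of −1.19, and of 23 glycolysis genes 15 were lower and 3 higher, with a median of −2.03. The count of 3 became 6 without breast library 2 and 1 without breast library 1 or breast library 4. PGM1, which interconverts glucose 1-phosphate and glucose 6-phosphate, was at 443, 429.9, 235 and 266 FPKM in soleus and 4252, 3589, 3226 and 3359 FPKM in breast. The lowest breast value, 3226 FPKM, was far above the highest soleus value, 443 FPKM, with a log2 difference of −3.44 (SE 0.30, adjusted p = 8.5e-09). The unnamed ID annotated as glycogen phosphorylase, ENSGALG00000048064, averaged 1478 ± 354 FPKM in soleus and 8500.0 ± 1243 FPKM in breast (log2 difference −2.54, adjusted p = 1.1e-07). PYGB, which carries the same annotation, was called higher at far lower levels, 3.67, 4.43, 1.87 and 3.58 FPKM in soleus and 1.84, 2.41, 1.19 and 0.958 FPKM in breast, with overlapping groups (log2 difference 0.75, SE 0.21, adjusted p = 0.0049); it was not called under quantile normalization (adjusted p = 0.0602). Subunits of phosphorylase kinase, which switches phosphorylase on, were lower: PHKA1 was at 138, 124, 101 and 121 FPKM in soleus and 762, 532, 651 and 641 FPKM in breast, and PHKB at 33.8, 38.4, 22.8 and 36.5 FPKM in soleus and 206, 237, 243 and 293 FPKM in breast. Their log2 differences were −2.41 (SE 0.23, adjusted p = 2.2e-08) and −2.87 (SE 0.25, adjusted p = 5.5e-09), without overlap.

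Some genes of glycogen building were among those that rose. UGP2, which makes the UDP-glucose that feeds glycogen synthesis, was at 422, 277, 628 and 799 FPKM in soleus and 209, 146, 161 and 152 FPKM in breast. All soleus values exceeded all breast values, with a log2 difference of 1.57 (SE 0.27, adjusted p = 5.2e-05). GBE1, the branching enzyme, was at 23.4, 21.5, 22.1 and 18.2 FPKM in soleus and 8.3, 10.6, 14.1 and 11.5 FPKM in breast, a log2 difference of 0.89 (SE 0.22, adjusted p = 0.0021). SLC37A4, the glucose 6-phosphate transporter of the endoplasmic reticulum, was lower, at 15.5, 15.6, 10.5 and 15.2 FPKM in soleus and 176, 157, 158 and 200.4 FPKM in breast (log2 difference −3.52, SE 0.20, adjusted p = 1.1e-11). Among 14 genes listed with the AMP-activated kinase, the cell's energy gauge, 3 were higher and 6 lower. The list holds partner proteins as well as subunits, and its largest rise, FNIP2, is not a subunit (log2 difference 0.98, SE 0.23). The catalytic subunit PRKAA2 was lower, with a log2 difference of −1.39 (SE 0.27, adjusted p = 1.9e-04).

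Genes that bring in glucose and lactate and that gate pyruvate were mostly higher: 13 of 19 tested rose and 3 fell. PDK4 and PDK1 inhibit pyruvate dehydrogenase and so spare glucose. PDK4 was at 1122, 523, 1223 and 933 FPKM in soleus and 118, 23.9, 233 and 338 FPKM in breast, where library 2 was the lowest. The groups did not overlap, and the log2 difference was 2.87 (SE 0.68, adjusted p = 0.0015). PDK1 was at 29.8, 21.5, 39.5 and 37.2 FPKM in soleus and 2.49, 5.69, 4.12 and 3.04 FPKM in breast, a log2 difference of 2.78 (SE 0.28, adjusted p = 5.3e-08). PDP1, the phosphatase that reactivates pyruvate dehydrogenase, was lower (log2 difference −1.25, SE 0.32, adjusted p = 0.0027), although breast library 3, at 22.5 FPKM, lay within the soleus range.

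Genes named as members of the monocarboxylate carrier family differed in both directions, and of those given here only SLC16A9 was lower. SLC16A7 (MCT2) was at 6.79, 5.62, 10.7 and 16.6 FPKM in soleus and 0.0173, 0.104, 0 and 0.0298 FPKM in breast, with a log2 difference of 3.29 (SE 0.24, adjusted p = 4.0e-10). SLC16A1 (MCT1) and SLC16A3 (MCT4), which carry lactate across the cell membrane, were both higher in soleus. SLC16A1 was at 21.3 ± 4.63 FPKM in soleus and 11.1 ± 2.45 FPKM in breast (log2 difference 0.88, SE 0.19, adjusted p = 5.5e-04), and SLC16A3 at 15.8 ± 5.16 FPKM in soleus and 4.1 ± 1.58 FPKM in breast (log2 difference 1.72, SE 0.33, adjusted p = 2.1e-04). SLC16A9 (MCT9) was far lower, at 4.0, 3.33, 7.41 and 1.73 FPKM in soleus and 100.4, 35.8, 157 and 53.1 FPKM in breast; its level varied among libraries of both muscles without overlap (log2 difference −3.99, SE 0.43, adjusted p = 1.7e-07).

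The glycerol phosphate and malate-aspartate shuttles carry reducing power from the cytosol into mitochondria. Of 10 shuttle genes 7 were higher and 2 lower, and the 2 lower ones were the enzymes of the glycerol phosphate shuttle. GPD1, its cytosolic enzyme, was at 158, 195, 79.4 and 101 FPKM in soleus and 1728, 1379.6, 1226 and 1833 FPKM in breast. GPD2, its mitochondrial enzyme, was at 13.2, 5.7, 3.51 and 5.01 FPKM in soleus and 83.3, 63.8, 49.4 and 91.4 FPKM in breast. Neither pair of groups overlapped, and the log2 differences were −3.59 (SE 0.29, adjusted p = 1.9e-09) and −3.32 (SE 0.36, adjusted p = 1.5e-07). The malate-aspartate shuttle's cytosolic enzyme MDH1 was at 310.3, 342, 397 and 395 FPKM in soleus and 93.2, 98.4, 87.9 and 78.4 FPKM in breast, higher by a log2 difference of 2.0 (SE 0.13, adjusted p = 9.9e-11). GPD1L, a relative of GPD1 with another tissue range in mammals, was at 104, 79.8, 152 and 98.7 FPKM in soleus and 7.34, 7.39, 12 and 7.01 FPKM in breast (log2 difference 3.53, SE 0.22, adjusted p = 3.0e-11).

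**Figure D4:**
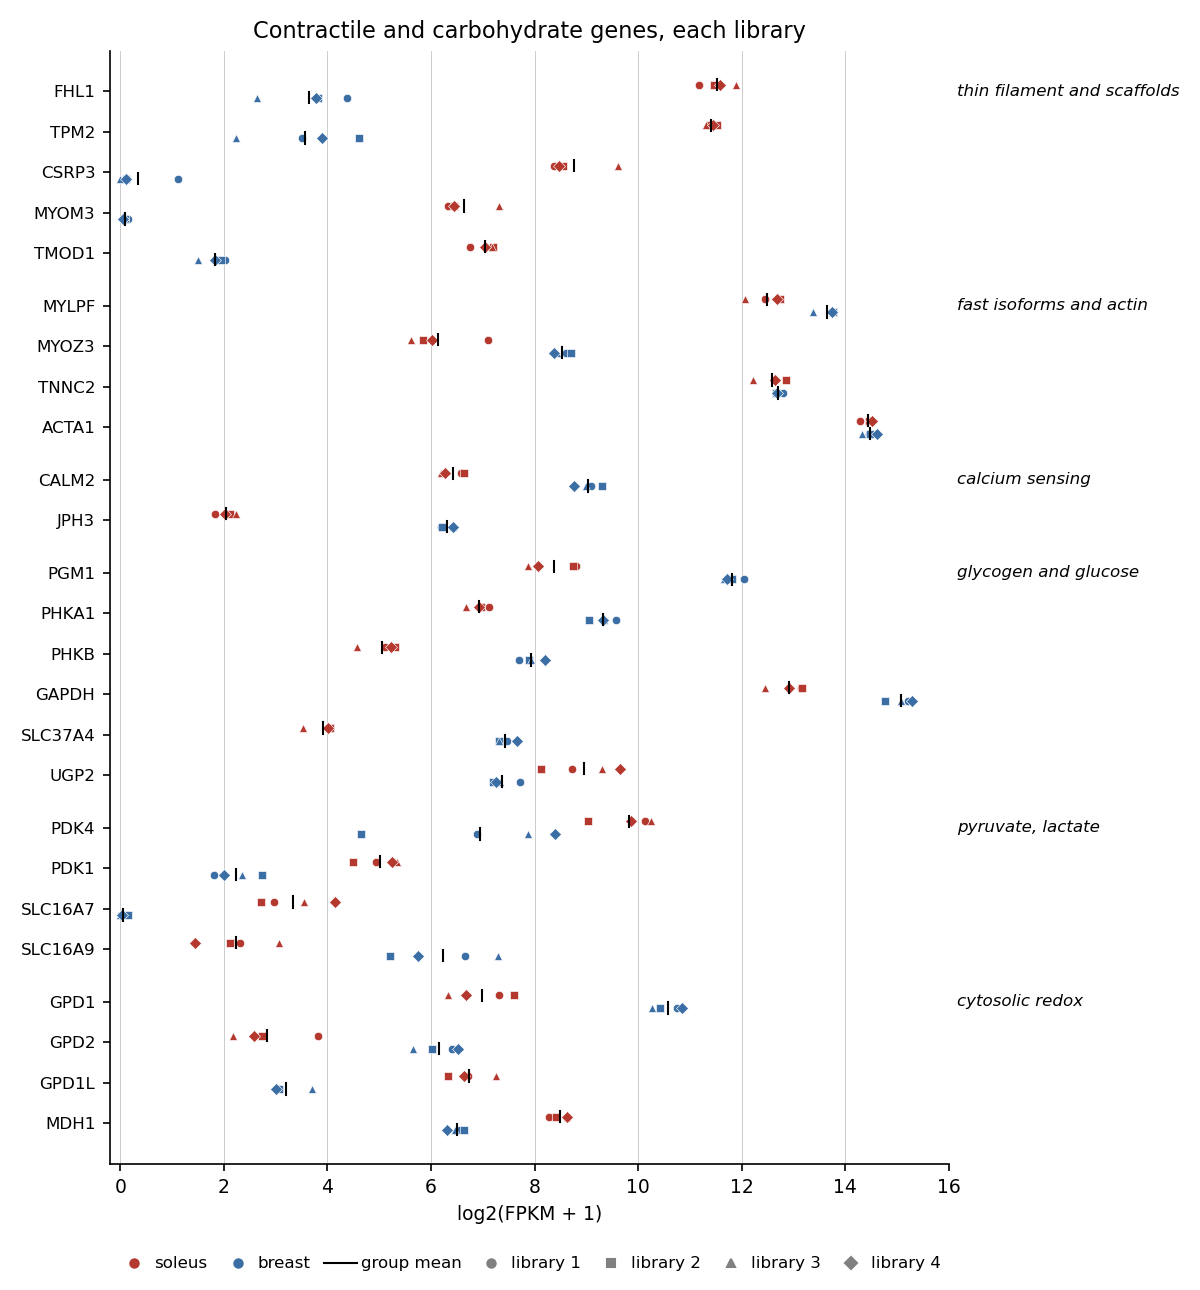
Level in log2(FPKM + 1) of 25 contractile, calcium and carbohydrate genes in each soleus (red) and breast (blue) library, with marker shape giving the library number and a black bar the group mean. Groups overlap for TNNC2 and ACTA1 and for no other gene drawn, and GPD1 and GPD2 lie on the opposite side from GPD1L and MDH1.

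Enzymes that rebalance adenine nucleotides in hard-working fast fibres were lower in the soleus. In the list of creatine, adenylate and purine cycle genes 4 of 16 fell and 2 rose, the latter becoming 4 without breast library 2. AMPD1, AMP deaminase, was at 62.1, 69.95, 32.8 and 52.3 FPKM in soleus and 442, 374, 269 and 351 FPKM in breast. AK1, adenylate kinase, was at 309, 238, 166 and 206 FPKM in soleus and 1077, 933, 875 and 1202 FPKM in breast. Both were without overlap, with log2 differences of −2.73 (SE 0.29, adjusted p = 1.2e-07) and −2.17 (SE 0.30, adjusted p = 4.2e-06). NT5C2, a nucleotidase, was higher (23.6, 30.3, 34.7 and 33 FPKM in soleus and 9.35, 8.96, 9.41 and 6.54 FPKM in breast; log2 difference 1.71, SE 0.16, adjusted p = 2.7e-08). Mitochondrial creatine kinase, CKMT2, overlapped at 927 ± 145 FPKM in soleus and 801 ± 117 FPKM in breast and was not called (log2 difference 0.21, SE 0.25, adjusted p = 0.51).

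Carnosine and its methylated form anserine are buffering dipeptides stored at high levels in chicken breast, whereas taurine is typical of red muscle. Of 11 genes of these pathways tested, 6 were lower and 3 higher. CARNS1, carnosine synthase, was at 11.4, 12.6, 8.35 and 10.5 FPKM in soleus and 51, 67.8, 46.2 and 104 FPKM in breast, without overlap (log2 difference −2.48, SE 0.22, adjusted p = 9.4e-09). GADL1, a decarboxylase that makes beta-alanine in mammals, was at 1.57, 2.56, 3.08 and 1.34 FPKM in soleus and 12.3, 71.6, 8.54 and 74.2 FPKM in breast, where libraries 2 and 4 were the high ones (log2 difference −3.24, SE 0.48, adjusted p = 1.2e-05). ABAT, which breaks down beta-alanine and GABA, was at 1.68, 0.993, 1.06 and 1.06 FPKM in soleus and 22.5, 12.5, 16.7 and 15.9 FPKM in breast (log2 difference −3.01, SE 0.21, adjusted p = 2.6e-10). The 3 that rose were the taurine transporter SLC6A6 and the enzymes of taurine synthesis CDO1 and CSAD. SLC6A6 was at 13.2, 8.47, 12.4 and 15.4 FPKM in soleus and 0.689, 4.8, 0.644 and 0.651 FPKM in breast. CDO1 and CSAD were higher by log2 differences of 2.28 (SE 0.38, adjusted p = 3.9e-05) and 0.87 (SE 0.12, adjusted p = 3.9e-06). For SLC6A6 breast library 2 was the highest of its group, still below every soleus library, and the log2 difference was 2.53 (SE 0.30, adjusted p = 6.3e-07).

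Mitochondrial genes were higher broadly but not uniformly. All 13 mitochondrially encoded genes, 52 of 64 nuclear oxidative phosphorylation genes, 14 of 19 TCA cycle genes and 15 of 19 fatty acid oxidation genes rose, with 0, 0, 0 and 1 falling. Genes of ketone body and branched-chain amino acid breakdown rose in 18 of 21 cases and fell in 2, and genes of coenzyme Q and haem synthesis in 15 of 22 cases and fell in 3. Mitochondrial ribosomal proteins did not share this, with 17 of 69 higher, 13 lower and a median of 0.03 (24 and 6 with equal nuclear-encoded sums). Of 33 SLC25 carriers of the inner membrane, 16 were higher and 6 lower.

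Named members showed the same mixture. COQ8A, a kinase-like protein of coenzyme Q synthesis, was at 421, 504, 602 and 604 FPKM in soleus and 204, 59.96, 207 and 144 FPKM in breast, with library 2 the lowest breast value (log2 difference 1.92, SE 0.31, adjusted p = 2.7e-05). ALAS1, the first enzyme of haem synthesis, was at 55.5, 54.7, 72.7 and 90.2 FPKM in soleus and 13.9, 14.1, 13.3 and 15.1 FPKM in breast (log2 difference 2.17, SE 0.18, adjusted p = 4.0e-09), and BLVRA, which acts on the breakdown product of haem, rose by 3.0 (SE 0.33, adjusted p = 2.1e-07). SLC25A22, a glutamate carrier, was higher by a log2 difference of 2.49 (SE 0.25, adjusted p = 7.5e-08). SLC25A30 was lower, at 14.1, 51.2, 27.2 and 35.6 FPKM in soleus and 60.3, 136, 52.9 and 178 FPKM in breast, and soleus library 2, at 51.2 FPKM, came closest to the breast values (log2 difference −1.66, adjusted p = 0.001). BCAT1, the cytosolic aminotransferase of branched-chain amino acids, was at 0.786, 0.28, 0.392 and 0.602 FPKM in soleus and 7.43, 5.82, 7.94 and 11.3 FPKM in breast and so fell (log2 difference −2.57, SE 0.30, adjusted p = 6.0e-07), unlike the mitochondrial carboxylase subunits MCCC1 and MCCC2, which rose by 1.3 and 1.26. GLS2, the glutaminase that frees glutamate inside mitochondria, was at 8.94, 6.85, 5.05 and 7.15 FPKM in soleus and 154, 118, 95.6 and 133 FPKM in breast, among the largest falls (log2 difference −3.98, SE 0.29, adjusted p = 4.0e-10).

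The mitofusins, which join outer mitochondrial membranes, went in opposite directions. MFN1 was at 50.8, 61.7, 82.8 and 69 FPKM in soleus and 24.6, 30.8, 35.5 and 31.8 FPKM in breast, and MFN2 at 51.6, 65, 60.5 and 47.6 FPKM in soleus and 116, 144, 126 and 89.6 FPKM in breast. The groups overlapped for neither gene, and the log2 differences were 1.07 (SE 0.16, adjusted p = 9.5e-06) and −1.06 (SE 0.18, adjusted p = 5.3e-05). In their list of fusion, fission, cristae and import genes 18 of 37 rose and 3 fell. Among 28 antioxidant enzymes 16 rose and 2 fell, the latter 1 with libraries paired by number and 1 without any one of 7 libraries (all but breast library 3). Catalase (CAT) was at 87.7, 54.2, 73.2 and 55 FPKM in soleus and 20.5, 20.6, 34.6 and 19.1 FPKM in breast (log2 difference 1.48, SE 0.22, adjusted p = 8.5e-06).

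Of 11 globin and oxygen-handling genes tested, 2 were higher and 2 lower. The 2 higher became 5 with libraries paired by number, 6 with equal nuclear-encoded sums and 4 without breast library 2 or 4. EPAS1, a hypoxia-inducible factor, was at 53, 52.2, 65.2 and 52.1 FPKM in soleus and 17.3, 17.9, 20.3 and 14.4 FPKM in breast, without overlap (log2 difference 1.62, SE 0.28, adjusted p = 6.6e-05). EGLN3, a prolyl hydroxylase that marks such factors for destruction, was at 0.596, 0.55, 0.525 and 0.617 FPKM in soleus and 6.64, 9.51, 6.48 and 5.4 FPKM in breast (log2 difference −2.32, SE 0.22, adjusted p = 2.2e-08). HIF1AN, another oxygen-dependent inhibitor, was lower, with a log2 difference of −0.88 (SE 0.17, adjusted p = 1.8e-04). Among adult haemoglobin genes, which mark blood left in the tissue, HBA1 was at 69.4, 49.9, 49.7 and 141 FPKM in soleus and 49.2, 28.6, 28.3 and 78.3 FPKM in breast (log2 difference 0.73, SE 0.35, adjusted p = 0.085). Its groups overlapped and it was not called, but it was higher in the soleus library of each number. With libraries paired by number it was called (adjusted p = 0.0071, limma), as it was without breast library 4 (0.019) and with equal nuclear-encoded sums (0.0388).

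Fibre type regulators did not all move one way: of 40 tested 11 were higher and 15 lower. The counts were 12 and 12 with equal nuclear-encoded sums and 6 and 18 under quantile normalization. MAFA, of a family of large MAF factors that drives fast myosin genes in mice, was at 15, 7.16, 3.42 and 20.2 FPKM in soleus and 97.6, 116, 63.6 and 153 FPKM in breast, and SIX2, a homeobox factor of muscle precursors, at 28.5, 21.9, 19.2 and 22 FPKM in soleus and 120.4, 97, 124 and 116 FPKM in breast. Both fell without overlap, with log2 differences of −3.3 (SE 0.60, adjusted p = 1.0e-04) and −2.28 (SE 0.33, adjusted p = 8.2e-06). RCAN2, a regulator of calcineurin, the calcium-dependent phosphatase that promotes slow fibre genes, was at 13.3, 15.6, 53.4 and 28.7 FPKM in soleus and 4.24, 2.45, 1.3 and 0.638 FPKM in breast (log2 difference 3.11, SE 0.60, adjusted p = 2.0e-04). Of 22 PPAR, PGC-1 and ERR regulators 9 were higher and 6 lower. ESRRG, a nuclear receptor that drives oxidative genes in mouse muscle, was at 7.91, 5.63, 15.2 and 11.9 FPKM in soleus and 2.09, 2.33, 3.34 and 2.67 FPKM in breast, and NRIP1, a corepressor of such receptors, at 4.53, 2.87, 3.58 and 4.42 FPKM in soleus and 6.87, 12.6, 9.5 and 14.6 FPKM in breast. Their log2 differences were 1.56 (SE 0.24, adjusted p = 1.8e-05) and −1.26 (SE 0.26, adjusted p = 3.5e-04), again without overlap.

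At the nerve-muscle contact 16 of 20 genes were higher and 1 lower in the soleus. The acetylcholine receptor subunits CHRNA1 and CHRNG rose; CHRNG, the embryonic gamma subunit, was at 9.6, 8.69, 14.7 and 10.1 FPKM in soleus and 2.15, 2.51, 2.43 and 1.42 FPKM in breast (log2 difference 1.9, SE 0.26, adjusted p = 4.5e-06). COL13A1, a collagen that stabilises the synapse, was at 2.83, 7.63, 5.36 and 5.89 FPKM in soleus and 0.0964, 0.699, 0.499 and 0.276 FPKM in breast (log2 difference 2.17, SE 0.30, adjusted p = 4.8e-06). RAPSN, which clusters the receptors, was the gene that fell, at 15, 17.3, 13.6 and 14.8 FPKM in soleus and 24.2, 31.6, 31 and 37.7 FPKM in breast (log2 difference −0.98, SE 0.16, adjusted p = 2.9e-05). Markers of nerve were higher as well, in 3 of 6 tested. The summed FPKM of the 13 nerve markers was 32.9 to 42.9 in soleus and 16.3 to 28.3 in breast, and its part in the synaptic counts was not tested.

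Of 25 sarcolemma channel and pump genes 13 rose and 2 fell; the 2 became 0 without breast library 3 and 1 without soleus library 2, 3 or 4 or breast library 1 or 2. KCNK3, a background potassium channel, was at 16.5, 21.3, 28.2 and 17.8 FPKM in soleus and 0.444, 1.997, 0.884 and 1.39 FPKM in breast (log2 difference 3.36, SE 0.32, adjusted p = 2.9e-08). SCN4B, an accessory subunit of sodium channels, was at 38, 24.4, 23.4 and 25 FPKM in soleus and 6.46, 4.84, 3.72 and 2.89 FPKM in breast (log2 difference 2.4, SE 0.36, adjusted p = 1.2e-05). In the dystrophin complex and costamere 16 of 30 genes were higher and 4 lower. SNTB1, beta-syntrophin, was at 21.9, 19.4, 18.4 and 12.7 FPKM in soleus and 1.04, 4.59, 0.492 and 0.737 FPKM in breast, with library 2 the highest of the breast values (log2 difference 3.01, SE 0.36, adjusted p = 6.8e-07).

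Among 43 secreted growth factors tested 20 were higher and 6 lower, the 6 becoming 3 without soleus library 3 or without breast library 4. FNDC5, whose cleaved part is called irisin in mammals, was at 45.8, 39.99, 57.4 and 64.8 FPKM in soleus and 0.39, 0.719, 0.0984 and 0.328 FPKM in breast. Its groups lay far apart, with a log2 difference of 5.25 (SE 0.22, adjusted p = 3.1e-14). GDF8, annotated as myostatin, the brake on muscle growth, was at 50.1, 41, 72 and 33.7 FPKM in soleus and 3.13, 20.1, 5.27 and 11.2 FPKM in breast, where library 2 was highest (log2 difference 2.42, SE 0.58, adjusted p = 0.0015). MUSTN1, counted in this list although described as a small nuclear protein of muscle and bone, was at 483, 539.8, 1159.9 and 529 FPKM in soleus and 18, 16, 16.4 and 29.8 FPKM in breast (log2 difference 4.96, SE 0.55, adjusted p = 2.5e-07). Genes of satellite cells and myogenesis were higher in 9 of 14 cases and lower in 1, the satellite cell gene PAX7. PAX7 was at 2.65, 2.46, 2.1 and 1.55 FPKM in soleus and 3.04, 2.97, 3.02 and 3.47 FPKM in breast, without overlap (log2 difference −0.38, SE 0.15, adjusted p = 0.032). The lower count became 0 with libraries paired by number or with equal nuclear-encoded sums. It was also 0 without soleus library 3 or 4 or breast library 1 or 4. Among those that rose was NCAM1, an adhesion protein of satellite cells and nerve, at 7.7, 11.2, 12.1 and 8.77 FPKM in soleus and 1.35, 1.51, 1.67 and 1.81 FPKM in breast (log2 difference 2.06, SE 0.36, adjusted p = 6.2e-05), and the intermediate filament gene DES, at 3327 ± 412 FPKM in soleus and 985 ± 151 FPKM in breast.

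Genes of protein turnover differed in both directions. Of 34 muscle ubiquitin ligases and adaptors 11 were lower and 6 higher (9 and 10 with equal nuclear-encoded sums). ASB2, which limits muscle mass in mice, was at 140.4, 159, 91.3 and 58.4 FPKM in soleus and 697, 454, 748 and 509.9 FPKM in breast, and TRIM55, a sarcomere-bound ligase, at 17.4, 14.7, 15.8 and 25.8 FPKM in soleus and 103, 62.1, 127 and 84.5 FPKM in breast. Both fell without overlap, with log2 differences of −2.48 (SE 0.34, adjusted p = 3.3e-06) and −2.28 (SE 0.31, adjusted p = 4.1e-06). KBTBD13, a ligase adaptor tied to nemaline myopathy in humans, was higher, at 32.9, 43.3, 42.8 and 33.3 FPKM in soleus and 3.13, 8.39, 5.97 and 6.46 FPKM in breast (log2 difference 2.53, SE 0.31, adjusted p = 1.1e-06), and ASB18, another adaptor, was at 103, 129, 175 and 187 FPKM in soleus and at 0.244 FPKM or 0 in breast.

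Heat shock genes rose in 15 of 32 cases and fell in 3, the 3 becoming 1 without soleus library 1, soleus library 3 or breast library 1. HSPB7, a small heat shock protein of heart and muscle, was at 1319, 2022, 2399.7 and 1811 FPKM in soleus and 255, 218, 161 and 111 FPKM in breast, without overlap (log2 difference 3.37, SE 0.37, adjusted p = 2.0e-07). HSF2, a heat shock transcription factor, was at 14.9, 16.9, 29.6 and 39.9 FPKM in soleus and 2.21, 2.42, 1.97 and 2.02 FPKM in breast (log2 difference 2.95, SE 0.36, adjusted p = 1.0e-06). The co-chaperones DNAJA4 and DNAJA1 went opposite ways: DNAJA4 was at 69.7, 129, 172 and 75.6 FPKM in soleus and 9.96, 11.8, 10.5 and 20.7 FPKM in breast, and DNAJA1 at 46.8, 74, 89.4 and 69.6 FPKM in soleus and 118, 154, 109.8 and 155 FPKM in breast. Neither pair overlapped, and the log2 differences were 2.94 (SE 0.46, adjusted p = 2.3e-05) and −0.95 (SE 0.22, adjusted p = 0.0013). Of 38 genes of proteasome subunits and assembly factors 3 were higher and 8 lower (3 and 17 under quantile normalization). The share lower was close to the 20% of all genes tested. Of 69 cytosolic ribosomal proteins 17 were higher and 5 lower. That last order turned to 3 and 10 under quantile normalization, and the 17 became 27 without breast library 2 and 10 without breast library 3.

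Of 25 genes of fatty acid uptake, binding and droplets 14 were higher in the soleus and 3 lower; the 3 became 1 without soleus library 3, soleus library 4 or breast library 3 and with equal nuclear-encoded sums. PNPLA2, the lipase that opens stored triglyceride, was at 169, 121, 255 and 219 FPKM in soleus and 17.4, 14, 12.8 and 37 FPKM in breast (log2 difference 3.24, SE 0.34, adjusted p = 9.9e-08). FABP3, which carries fatty acids in the cytosol, was at 2525, 1392, 4383 and 3872 FPKM in soleus and 139.8, 78.7, 115 and 133 FPKM in breast; soleus library 2 was the lowest of its group and still far above breast. ACSL1, which activates fatty acids, rose by a log2 difference of 2.63 (SE 0.25, adjusted p = 3.3e-08). DGAT2, which makes triglyceride, was lower, at 3.51, 4.39, 3.28 and 5.08 FPKM in soleus and 35.2, 28.5, 29.9 and 45.4 FPKM in breast, without overlap (log2 difference −2.81, SE 0.27, adjusted p = 3.1e-08). PLIN1, a coat of fat cell droplets, was at 5.72, 9.31, 17.2 and 17.4 FPKM in soleus and 0.27, 0.285, 0.0477 and 0.773 FPKM in breast (log2 difference 3.23, SE 0.31, adjusted p = 3.1e-08). Of 6 adipocyte markers tested 4 were higher and 0 lower, and PCK1 was listed at 0 in all 8 libraries. The summed FPKM of the 8 adipocyte markers in the table was 119.6 to 135.6 in soleus, and 141.5 in breast library 2 against at most 45.8 in the other breast libraries. Its part in the fat genes was not tested.

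**Figure D5:**
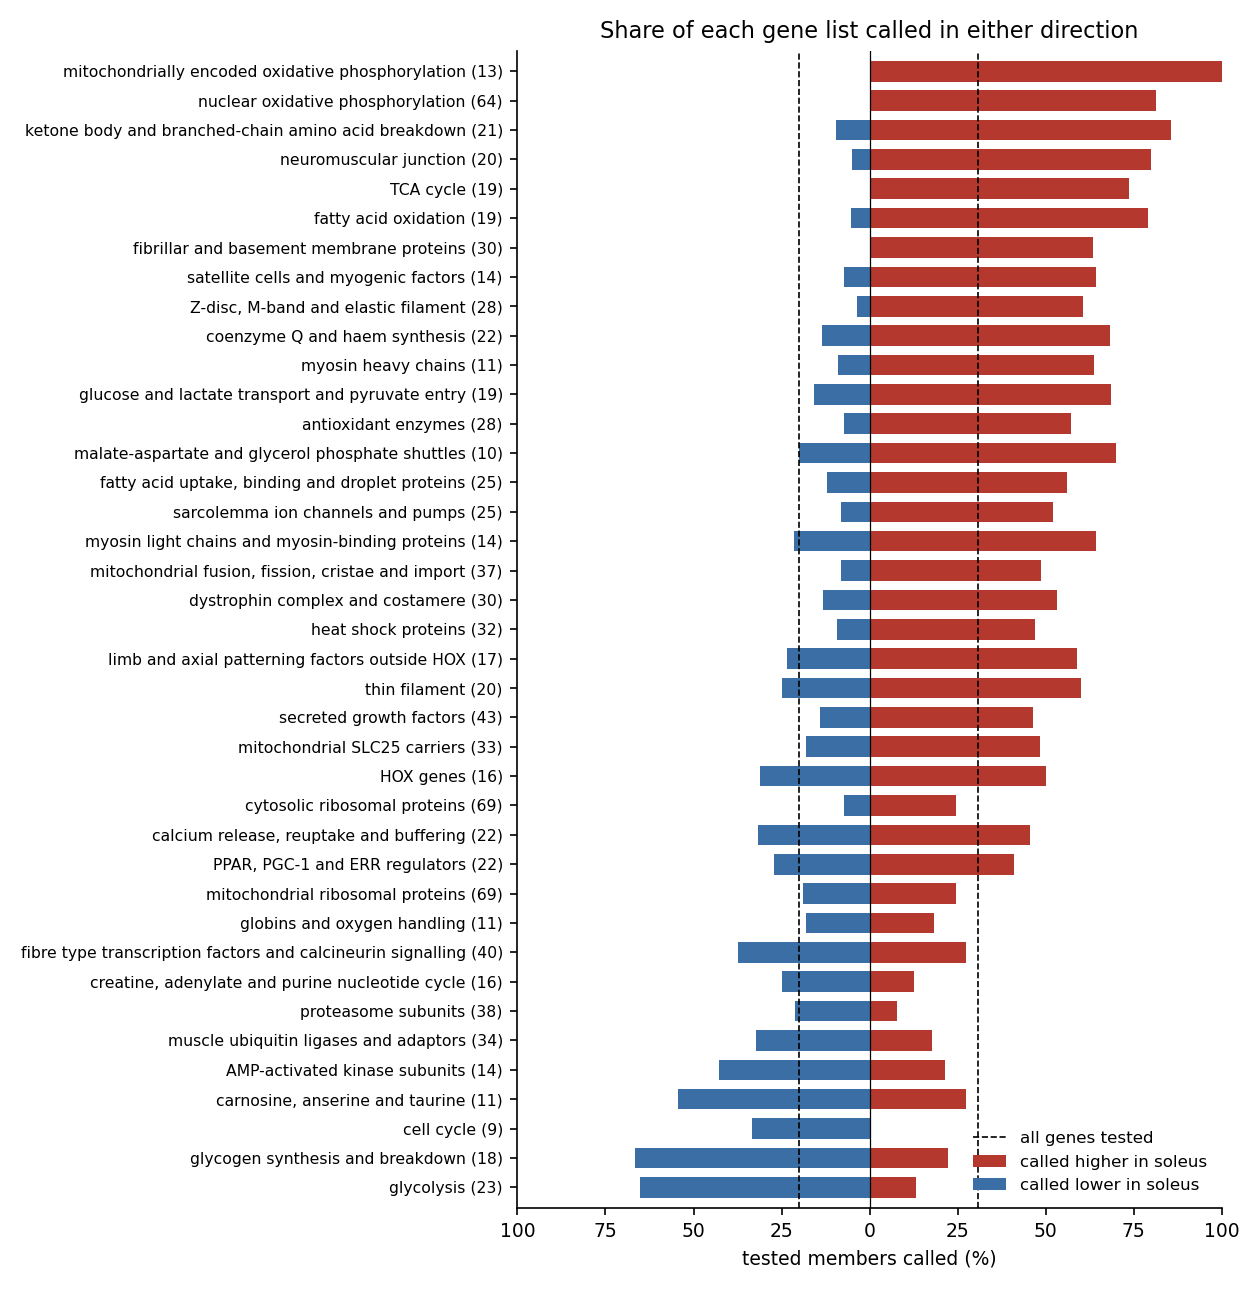
Percent of the tested members of 39 gene lists called higher (red, to the right) and lower (blue, to the left) in the soleus, with the number tested in brackets and dashed lines at 30.7% and 20%, the shares over all 10944 genes. Mitochondrially encoded genes lie at the top with 13 of 13 higher, and glycolysis at the bottom with 15 of 23 lower.

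Markers of other cells were compared because whole tissue was used, in which fewer cells of a type and less RNA per cell cannot be told apart. Endothelial markers were higher in 14 of 15 cases, with a summed level of 152.2 to 198.8 FPKM in soleus and 56.5 to 101.9 FPKM in breast. TIE1, a receptor of vessel walls, was at 16.6, 17.7, 15 and 16.3 FPKM in soleus and 5.28, 6.46, 4.51 and 4.08 FPKM in breast (log2 difference 1.53, SE 0.18, adjusted p = 4.5e-07). Smooth muscle and pericyte markers were higher in 11 of 14 cases, and among them SMTN, smoothelin, was at 33.6, 21.2, 32.8 and 19.3 FPKM in soleus and 2.79, 5.17, 3.62 and 3.1 FPKM in breast (log2 difference 2.55, SE 0.20, adjusted p = 2.0e-09). DES, which muscle fibres also express, holds most of that list's sum of 3245 to 4239 FPKM in soleus and 884.1 to 1306 FPKM in breast. Fibrillar and basement membrane genes were higher in 19 of 30 cases and lower in 0. Fibroblast markers were higher in 4 of 11 cases, close to the 30.7% of all genes tested, lower in 0 and not called in 7. Without breast library 2 the higher counts of these 2 lists were 23 and 6. The fibroblast marker sum was 144.8 to 214.3 FPKM in soleus and 61.9 to 222.7 FPKM in breast, the highest being breast library 2.

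Tendon markers were higher in 2 of 3 tested, and of 2 skin markers tested 1 was higher and 1 lower. Immune markers depended on breast library 2. Macrophage markers were higher in 1 of 8 tested genes with all libraries, in 7 of 8 without breast library 2, and in 0 without soleus library 1 or breast library 1, 3 or 4. The 1 was CD74, whose groups overlapped and which holds most of the macrophage marker sum in every library. Lymphocyte markers were lower in 1 of 8 tested and higher in 0, the latter 2 without breast library 2, and CD8A was listed at 0 in all 8 libraries. The red blood cell list had 2 of 7 tested genes higher (1 without breast library 1, 4 without breast library 4, and 5 with libraries paired by number or with equal nuclear-encoded sums), one of them TMOD1, which the sarcomere also uses. Their part in the results for other genes was not tested, but the calls of the contractile, positional and carbohydrate genes named above by symbol stood without breast library 2.

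The same muscle comparison was made in other birds of the study, fed high-fat diet for 15 or 60 days, which share no library with the control comparison but share its estimate of the spread. There 5646 genes (51.6%) and 4795 genes (43.8%) were called. Of the 5554 control calls, 4463 (80.4% of them and 79.0% of the 15-day calls) were made in the same direction at 15 days, and 4060 (73.1% and 84.7% of the 60-day calls) at 60 days. In both, 3604 (64.9%) were called the same way, and 5 and 3 were called the opposite way at 15 and 60 days. By list, 49 of 52 called nuclear oxidative phosphorylation genes, 15 of 18 called glycolysis genes, 12 of 16 called glycogen genes, 16 of 17 called neuromuscular genes and 9 of 13 called HOX genes kept their direction and call under both diets. The HOX share was close to the 64.9% of all control calls. Fibrillar and basement membrane genes kept 12 of 19 calls, also close to that share. Fibre type regulators, with 11 called higher and 15 lower, kept 14. The difference between muscles itself changed with diet for 1 gene at 15 days and 0 at 60 days by limma's interaction test (701 and 620 genes at an unadjusted p under 0.05); the gene, chosen after its value was seen, is an ID without a symbol, ENSGALG00000051520.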

How the data were processed

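RNA from pectoralis major and soleus was sequenced, 4 birds per muscle and diet. Trimming used fastp, per the labels' protocols; reads were aligned with HISAT2 to the chicken build GRCg6a and summed per gene with StringTie v1.3.3b, and the authors deposited FPKM values; the submitters' processing notes also name DESeq2 and Cufflinks without a role. Low FPKM values showed no whole-read steps (the fullest bin 1% wide held 2.35% of the ratios over 28 library pairs), so depth is unknown and no count test was run. Each FPKM had 1 added and log2 taken, which understates differences of low genes. limma 3.58.1 in R 4.3.3, with a variance trend, fitted 1 mean per group over the 24 libraries, and was tested on simulated data. Shares were compared by exact permutation. Gene lists and the rule for naming genes (the largest rises and falls overall and per list, the most abundant, and fixed genes) were chosen with earlier results of these data known; other genes named were chosen after their values were seen, and some genes that the rule names are not reported here. Alternatives were quantile normalization, an equal nuclear-encoded sum, a pseudocount of 0.1, no filter, the 8 control libraries alone, a replicate block, no trend and leaving out each library. Both muscles were taken from the same birds, of which 9 were selected per diet. The labels do not state that numbers mark birds, nor which of the 9 gave each library, so libraries were paired by number only. Control libraries of one number deviated together (r 0.163 to 0.295 against −0.155 to 0.09 for other pairs). Under SHFD the r of numbers 1 to 4 was 0.07, 0.21, 0.36 and 0.12. Under LHFD those of numbers 1 to 4 did not deviate together (r 0.09, −0.10, −0.12 and −0.08). There soleus 2, 3 and 4 gave r of 0.24, 0.33 and 0.33 with breast 1, 2 and 3, and other pairs of unlike number −0.25 to 0.09. The reason was not tested. The replicate block paired every diet by number, so its spread also rests on the LHFD pairs. IDs without a symbol were named from the table's KEGG annotation, and no strand information was at hand. Close paralogs such as the myosin heavy chains and calmodulins may share reads. No reference genome was used.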

Additional observations from a re-analysis of the deposited data

Results flagged for a closer look

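In a group of 4 libraries a value is singled out here when its distance to the nearest other value, on log2(FPKM + 1), as a part of the group's range, is beyond Dixon's 95% critical value. Chance alone singles out about 1 in 20 groups. Among 464 gene and group pairs with a value of at least 1 FPKM, 35 were, or 7.54%, and 10 of them fell in soleus library 3. No cause was tested for any of them. Soleus library 1 stood above the other 3 libraries of its muscle for ABAT (1.68 FPKM against 0.993 to 1.06), SCN4B (38 FPKM against 23.4 to 25) and SLC25A43 (4.62 FPKM against 2.48 to 2.74). Soleus library 3 stood above the other 3 libraries of its muscle for CSRP3 (785 FPKM against 331 to 372), EPAS1 (65.2 FPKM against 52.1 to 53) and MUSTN1 (1159.9 FPKM against 483 to 539.8). Soleus library 3 also stood above the other 3 libraries of its muscle for MYOM3 (159 FPKM against 79.3 to 86.1) and PSMC2 (76.9 FPKM against 66.2 to 67.9). Soleus library 3 also stood below the other 3 libraries of its muscle for ASB4 (10.5 FPKM against 16 to 16.7), MYL1 (4099 FPKM against 6563 to 7123) and SLC37A4 (10.5 FPKM against 15.2 to 15.6). Soleus library 3 also stood below the other 3 libraries of its muscle for SOX6 (1.002 FPKM against 2.13 to 2.28) and TPM1 (744 FPKM against 1437 to 1495). Soleus library 4 stood above the other 3 libraries of its muscle for CSAD (2.07 FPKM against 1.66 to 1.71), PRKAG2 (17.5 FPKM against 6.57 to 7.28) and TIMM8A (31.4 FPKM against 23.4 to 24.2). Soleus library 4 also stood below the other 3 libraries of its muscle for CAB39L (2.54 FPKM against 3.1 to 3.18). Breast library 1 stood above the other 3 libraries of its muscle for CSRP3 (1.17 FPKM against 0 to 0.0856), HIBADH (87.5 FPKM against 53.1 to 57.4) and MYL3 (3.41 FPKM against 0.0482 to 0.332). Breast library 1 also stood above the other 3 libraries of its muscle for TNNC2 (7083 FPKM against 6479.5 to 6567) and TNNI1 (6.11 FPKM against 0.0715 to 0.347). Breast library 2 stood above the other 3 libraries of its muscle for CD74 (526 FPKM against 106 to 133), COX6A1 (42.6 FPKM against 17.5 to 19.7) and SLC6A6 (4.8 FPKM against 0.644 to 0.689). Breast library 2 also stood below the other 3 libraries of its muscle for ASB4 (61.8 FPKM against 102 to 108). Breast library 3 stood above the other 3 libraries of its muscle for CAT (34.6 FPKM against 19.1 to 20.6), GPD1L (12 FPKM against 7.01 to 7.39) and PPOX (3.96 FPKM against 3.11 to 3.22). Breast library 3 also stood below the other 3 libraries of its muscle for LDHA (7474 FPKM against 9813 to 9903) and MYLPF (10605 FPKM against 13656 to 13859). Breast library 4 stood above the other 3 libraries of its muscle for PAX7 (3.47 FPKM against 2.97 to 3.04). Breast library 4 also stood below the other 3 libraries of its muscle for COII (6862 FPKM against 10413 to 10628), KDR (1.04 FPKM against 2.38 to 2.71) and NT5C2 (6.54 FPKM against 8.96 to 9.41).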

How the results depend on the processing

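The number of genes called in either direction stayed within 1.5 times its value under every alternative run: leaving out each library in turn gave 2952 to 3883 higher and 1895 to 2093 lower, 58.5% to 65.0% of calls higher, a median difference of 0.087 to 0.166 and 3430 to 3739 control calls shared with both high-fat diets. The split of calls depended on scaling. With quantile normalization 43.0% of calls were higher (60.6% as reported) and the median difference of all genes was −0.067; with equal nuclear-encoded sums they were 71.9% and 0.226; without the filter the median was 0.014. Of the reported calls, quantile normalization kept 2398 higher and 2187 lower in the same direction, and equal nuclear-encoded sums kept 3365 and 1600. With libraries paired by number as a replicate block 5216 calls kept their direction, and 6 of 254 named genes (HSPB8, KLF5, PAX7, PRDX3, TOMM6 and UROS, of which PAX7 alone is named above) lost their call. The mitochondrially encoded share differed by 10.385 to 12.218 percentage points when libraries were left out. In a sign-flip test with libraries paired by number it differed by 11.324 points, with an exact p of 0.125, the smallest 4 pairs can give. The share in the 20 most abundant genes differed by −6.653 to −4.878 points when libraries were left out (−5.328, exact p = 0.0571, without breast library 1, against 0.0286 without any other); it was −5.836 in the sign-flip test (exact p = 0.125), −1.817 for the 10 most abundant genes (exact p = 0.1714), −4.105 for the 50 most abundant and −15.625 for the 20 most abundant nuclear-encoded genes (exact p = 0.0286 for both). No named gene turned direction past the threshold. Leaving out a library changed the call of named genes in 91 of 2032 fits and moved a list count by over 1.5 times in 48 of 784. FPKM gives no depth, so no counting error can be attached to values near 0.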

Other observations

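A few genes among the largest differences belong to none of the groups described. The carbonic anhydrases, which interconvert carbon dioxide and bicarbonate, were exchanged: CA3A, a cytosolic form, was at 702, 891, 2552 and 599.9 FPKM in soleus libraries 1 to 4 and 2.36, 13.4, 0.135 and 1.7 FPKM in breast libraries 1 to 4, while CA12, a membrane form, was at 0.603, 1.02, 0.132 and 1.004 FPKM in soleus and 26.9, 4.6, 42.9 and 40.5 FPKM in breast. Soleus library 3 was the highest for CA3A, breast library 2 the lowest of its group for CA12, and neither gene overlapped. By limma the log2 differences were 8.15 (SE 1.20, adjusted p = 9.6e-06) and −3.81 (SE 0.52, adjusted p = 4.2e-06). TECRL, linked in humans to heart rhythm disorders, was at 93.4, 59.8, 179 and 58.3 FPKM in soleus and at most 0.064 FPKM in breast (log2 difference 6.44, SE 0.47, adjusted p = 4.7e-10). CDKN1A, which encodes the cell cycle inhibitor p21, was at 0.609, 0.675, 1.38 and 0.819 FPKM in soleus and 6.88, 42, 39.2 and 13.6 FPKM in breast, without overlap and with breast libraries 2 and 3 highest (log2 difference −3.51, SE 0.63, adjusted p = 9.5e-05). DYRK3, a kinase that dissolves stress granules in mammalian cells, was at 1.11, 1.59, 1.24 and 1.64 FPKM in soleus and 27.6, 22.4, 34.1 and 17.5 FPKM in breast (log2 difference −3.43, SE 0.18, adjusted p = 2.5e-12).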
